A study of Mus musculus with 7 samples.

Results

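The data described here are those of 9 mouse genes whose products defend mucosal surfaces against microbes: Reg3g, Reg3b, Lypd8, Dmbt1, Pglyrp1, Bpifb1, Lyz1, Lcn2 and Pigr. The genes were selected on their names and chosen by a list drawn up with the levels and differences of these 7 arrays in view, so their levels and differences are a description and support no test. All 9 had a probe, which makes 9 of the 17043 named genes on the array and 10 of its 41174 probes, since Lypd8 had a pair of probes and each other gene had 1.

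Total RNA of 7 samples was hybridised, each to 1 Agilent mouse 4x44K array in a single colour, with 1 array per group and therefore no replicates, no standard deviations between samples and no tests. The samples ask how far stomach-like tissue grown from mouse embryonic stem (ES) cells resembles the embryonic stomach and the adult organs. The first ES-derived sample was taken on culture day 42, after growth in DMEM/F12 with N2/B27, EGF at 50 ng/mL, FGF10 at 100 ng/mL, R-spondin1 at 250 ng/mL, Wnt3a and Noggin. The second was taken on day 46, after the same 42 days and a further 4 days with Shh at 100 ng/mL and Bmp4 at 10 ng/mL, in a base medium that also held EGF. Whether the earlier factors were withdrawn for those days is not given in the sources used here. The embryonic sample was the stomach primordium of E9.5 embryos of ICR mice, an outbred strain. The 4 adult samples were stomach, intestine, esophagus and lung, freshly taken from ICR mice. Neither the ES cell line, nor the region of intestine, nor the number, sex and age of the animals is given in the sources used here. In such bulk RNA, fewer cells of a type and less RNA per cell cannot be told apart.

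Mucosal epithelia hold microbes at a distance with secreted proteins that bind or kill them and with antibodies that the epithelium carries into the lumen. REG3G and REG3B are C-type lectins of intestinal epithelium, and REG3G kills Gram-positive bacteria by binding their peptidoglycan. LYPD8 is a GPI-anchored protein of colonic epithelium that binds flagellated bacteria, DMBT1 is a scavenger receptor cysteine-rich glycoprotein that agglutinates bacteria, PGLYRP1 is a peptidoglycan recognition protein, BPIFB1 belongs to the BPI fold family of airway and upper digestive secretions, lysozymes cut peptidoglycan, LCN2 (lipocalin 2) sequesters bacterial siderophores, and PIGR is the receptor that carries polymeric IgA and IgM across epithelium.

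Every level below is the log2 processed signal of a probe minus the 75th percentile of its array, so 0 is the signal of a probe at that percentile. Each gene's values are set against the same probe's values on other arrays and never against another gene's. A value is called dim where the scanner software did not mark the spot as well above background. Differences are log2 values, first array minus second, and a difference of 2 is 4-fold, the size used for counts. Where 1 side is dim, that side takes the higher of its own signal and the lowest signal above background on its array, and the fold is then a bound written as at least. Such a bound holds for the main background correction alone, and another correction can give a smaller fold. Each probe of the 9 genes had 1 spot per array, and the scanner software's own error on the values above background lay between 0.14 and 0.32. The error used for comparisons is the standard deviation (SD), between probes of the same gene, of the difference between the arrays compared. It was 0.51 for day 46 against day 42, 0.87 for day 42 against adult stomach and between 0.48 and 0.56 for the other adult organs against adult stomach. It holds no spread between animals or cultures.

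Between 77.8% and 90.5% of named genes were above background on an array. The day 46 array had the highest share and also the lowest signal among its probes above background, and its 10 spike-in probes sat a median of 2.91 below the median of the other arrays, against offsets of -0.26 to 1.13 on those. The 4 adult arrays shared 1 slide and the other 3 were each on a slide of their own, so slide cannot be told apart from any difference described here except those among adult organs. Both culture arrays were read with a later version of the scanner software than the other 5, which cannot be told apart from the difference between culture and tissue. The labelled tissues showed their defining genes, with 8 of 8 stomach genes, 5 of 5 intestinal genes, 5 of 5 esophageal genes, 5 of 5 lung genes and 6 of 6 genes of the embryonic list (foregut factors, Shh and the embryonic globin Hbb-y) above background in the organ named. Hbb-y, at 6.43, was the highest gene of that list in E9.5 stomach and is no stomach gene. Several lists were also read elsewhere: both cultures had 5 of 5 esophageal genes above background, and E9.5 stomach had 5 of 5 intestinal genes. Adult stomach, the array against which most values below are set, had all 5 esophageal genes, with Krt5 at 6.31 and Krt4 at 4.56 and a summed level of 7.17 against 8.87 in esophagus, so that array read squamous as well as gastric genes. It also had all 5 lung genes and all 6 embryonic ones. Of the embryonic list, 1 gene was at least 4-fold higher in E9.5 than in adult stomach, Hbb-y, and 2 were lower (median 0.14). These 2 were Gata4 (-4.18 in E9.5 and 0.05 in adult stomach) and Foxa2 (1.55 and 3.57), where 11.5% of all genes were higher and 18.1% lower. The esophagus array had all 5 lung genes above background. The surfactant gene Sftpc was at 5.12 there and at 9.71 in lung, and the airway secretoglobin Scgb1a1 was at 5.44 and 9.57. Scgb1a1 was at 2.91 in adult stomach. The part of these signals in the levels of the defence genes on the stomach and esophagus arrays was not tested. Of the 9 defence genes, 9 were above background at day 42, 9 at day 46, 8 in each adult organ and 3 (Dmbt1, Bpifb1 and Lyz1) in the E9.5 stomach.

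**Figure D1:**
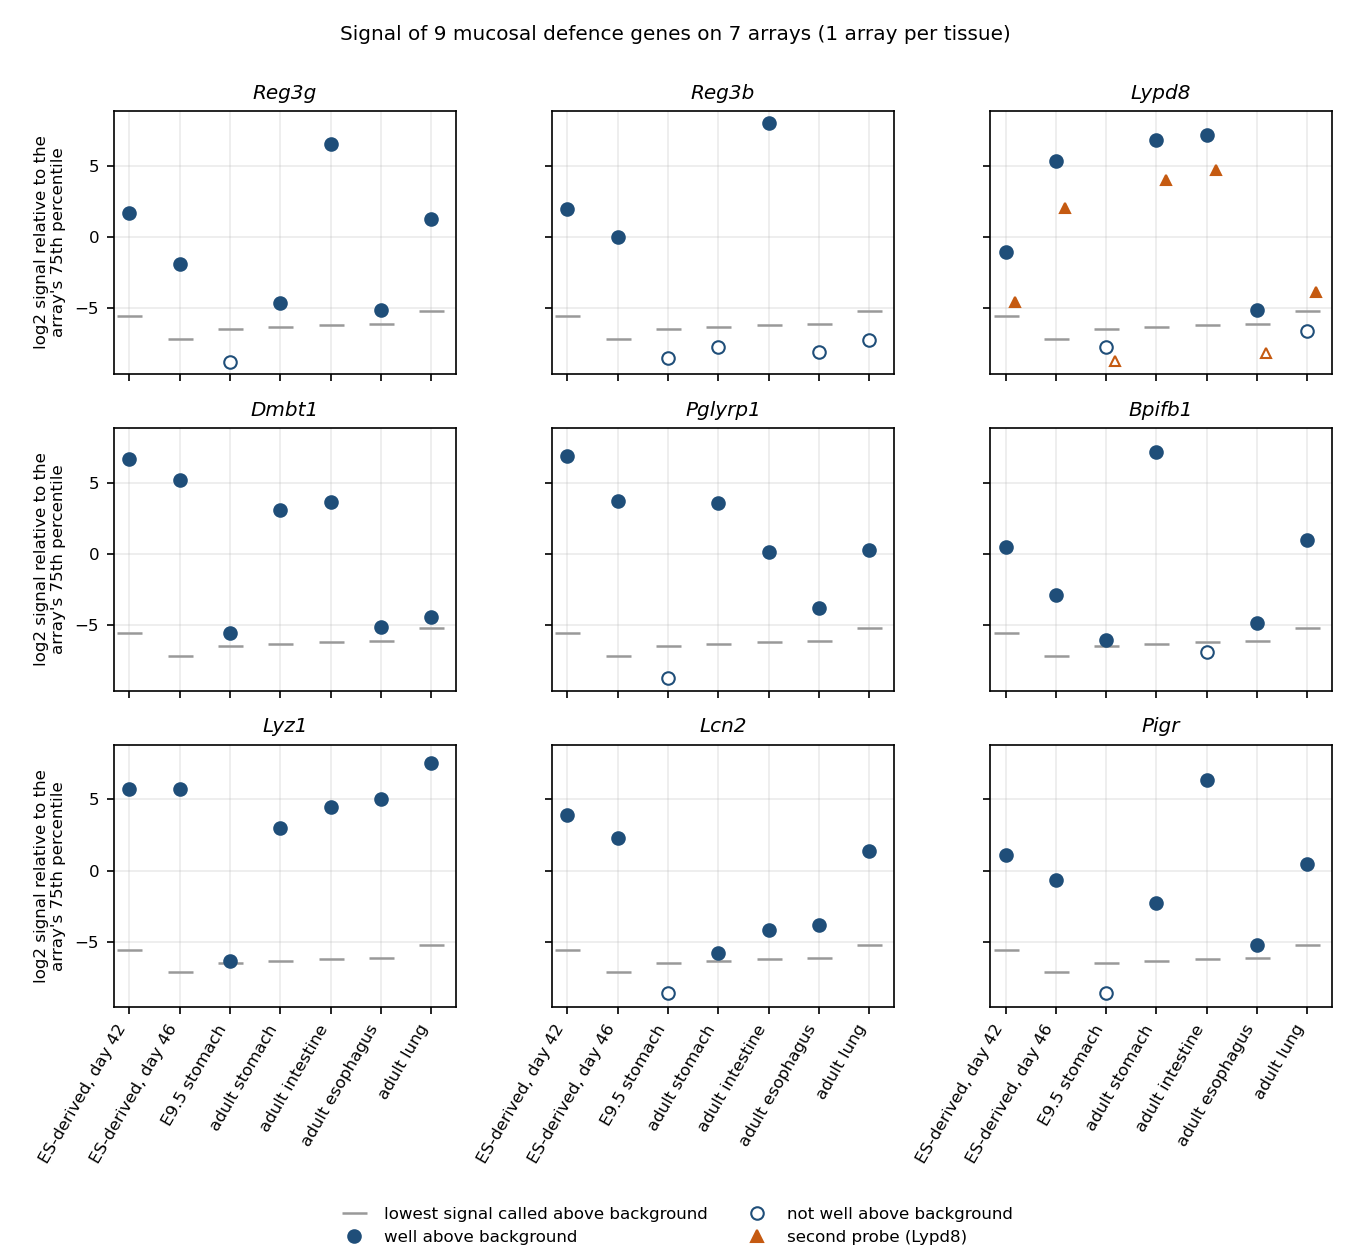
Level of each of the 9 defence genes on the 7 arrays, as log2 signal relative to the array's 75th percentile, with 1 panel per gene, both probes shown for Lypd8 and open symbols for values not well above background. Each point is 1 array. Reg3g, Reg3b and Pigr were highest in adult intestine, Bpifb1 in adult stomach, Lyz1 in lung, and Pglyrp1, Dmbt1 and Lcn2 at day 42.

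The Reg3 lectins lie close together on chromosome 6, and the sequences before their start sites are shown because Reg3g and Reg3b, alike in sequence, differed in where they were read. In the RefSeq promoter table (build GRCm38.p6) 8 of the 9 genes had an entry, with 10 promoters in all because Lypd8 and Bpifb1 had a pair each. Dmbt1 was not in the table. The 250 bases before the start site of Reg3b (chr6:78370635-78370884, plus strand) and of Reg3g (chr6:78468875-78469124, minus strand) follow, each 5′ to 3′ on its own gene's strand. Capitals mark a match to TTCNNNGAA, the palindrome bound by STAT factors, in Reg3b, and a match to an NF-kB type motif (GGGA, then 4 bases of any kind, then CC) in Reg3g.
Reg3b: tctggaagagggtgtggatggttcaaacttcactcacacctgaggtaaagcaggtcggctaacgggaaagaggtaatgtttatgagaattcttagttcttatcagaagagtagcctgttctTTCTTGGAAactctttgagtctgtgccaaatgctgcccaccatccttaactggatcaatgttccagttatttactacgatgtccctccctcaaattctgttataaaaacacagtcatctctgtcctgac
Reg3g: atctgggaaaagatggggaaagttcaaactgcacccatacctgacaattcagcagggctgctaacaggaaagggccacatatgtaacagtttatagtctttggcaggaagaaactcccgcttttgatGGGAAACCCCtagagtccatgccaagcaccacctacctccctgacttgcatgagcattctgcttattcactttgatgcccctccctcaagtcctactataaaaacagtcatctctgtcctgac
The aligned windows were identical at 173 of 253 positions (68.4%), with a longest shared run of 20 bases, whereas 3 pairs of unrelated genes of the list gave 44.9% to 47.4%. The STAT match of Reg3b lay at -129 to -121 from the start site and the NF-kB type match of Reg3g at -123 to -114. On either strand, 7.02% of the 32851 promoters in the table held TTCNNNGAA and 17.6% held the NF-kB type motif. Among the 10 promoters of the defence genes, 2 held the first (Reg3b and 1 of Bpifb1) and 5 held the second (Reg3g, Pigr, Pglyrp1, Bpifb1 and Lypd8). A match of letters is a description of the sequence and not a site of binding, and these shares were not tested.

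Reg3g was highest in adult intestine by a wide margin and was present in both cultures. Its level was 6.54 in intestine, 1.70 at day 42, 1.29 in lung, -1.87 at day 46, -4.62 in adult stomach, -5.08 in esophagus and dim at -8.74 in the E9.5 stomach. Day 42 and lung did not differ beyond the SD between probes (0.41 apart), and neither did stomach and esophagus (0.46 apart). Reg3b was more restricted. It stood at 7.99 in intestine, 1.94 at day 42 and -0.02 at day 46, and was dim on the other 4 arrays, at -7.18 in lung, -7.67 in stomach, -8.06 in esophagus and -8.51 in E9.5 stomach. Lung thus read Reg3g at a level not separated from day 42 while Reg3b was dim there. No array read Reg3b without Reg3g, and signal of one lectin's RNA on the other's probe was not tested.

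Pigr, the antibody transporter, was the gene of the list most correlated with Reg3g (0.98 over the 7 arrays). Its level was 6.37 in intestine, 1.09 at day 42, 0.45 in lung, -0.64 at day 46, -2.25 in stomach, -5.18 in esophagus and dim at -8.53 in E9.5 stomach. The 7 arrays came in the same order as for Reg3g, and day 42 and lung again did not differ beyond the SD between probes (0.63 apart). The cargo of the receptor comes from plasma cells, and a list of 8 measured antibody and plasma cell genes had a summed level of 5.95 in intestine, 4.96 in lung and 1.82 in stomach, against -0.60 at day 42 and -1.18 at day 46. Jchain, which joins polymeric IgA, was at 5.59 in intestine, 1.39 in stomach and -6.87 at day 46, and was dim at day 42. Of the 8 genes of that list, 4 were above background at day 42, 7 at day 46 and all 8 in intestine and in stomach. The cultures read the receptor at levels above adult stomach while their Jchain signal was at or near background.

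Lypd8 was highest in adult intestine, adult stomach and the day 46 culture. The brighter probe gave 7.12 in intestine, 6.77 in stomach, 5.31 at day 46, -1.02 at day 42 and -5.09 in esophagus, and was dim in lung (-6.61) and in E9.5 stomach (-7.73). The other probe gave 4.67 in intestine, 3.98 in stomach, 2.01 at day 46, -3.87 in lung and -4.52 at day 42, and was dim in esophagus (-8.12) and E9.5 stomach (-8.66). Both probes thus put intestine, stomach and day 46 first and in that order. They disagreed at the low end, where only the brighter probe was above background in esophagus and only the other in lung. Intestine and stomach were 0.35 apart by the brighter probe, within the SD between probes of 0.53, and 0.69 apart by the other, beyond it.

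Dmbt1 and Pglyrp1 were both highest at day 42. Dmbt1 was at 6.68 at day 42, 5.21 at day 46, 3.64 in intestine, 3.05 in stomach, -4.43 in lung, -5.11 in esophagus and -5.54 in E9.5 stomach. It separated the cultures, intestine and stomach from the other 3 arrays, with a gap between stomach and lung wider than any other in its order. Pglyrp1 was at 6.88 at day 42, 3.73 at day 46, 3.60 in stomach, 0.30 in lung, 0.16 in intestine and -3.81 in esophagus, and was dim at -8.72 in E9.5 stomach. Day 46 and adult stomach were 0.12 apart and lung and intestine 0.14 apart, both within the SD between probes.

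Bpifb1 was the 1 gene of the 9 whose highest level was in adult stomach. It stood at 7.16 there, 1.00 in lung, 0.47 at day 42, -2.87 at day 46, -4.86 in esophagus and -6.05 in E9.5 stomach, and was dim at -6.85 in intestine. Lung and day 42 did not differ beyond the SD between probes (0.53 apart). Its place in the intestine was the reverse of that of the Reg3 lectins, which had their highest levels on that array.

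Lcn2 was highest in the cultures and low in the adult digestive organs. It was at 3.89 at day 42, 2.27 at day 46, 1.38 in lung, -3.80 in esophagus, -4.17 in intestine and -5.79 in adult stomach, and was dim at -8.60 in E9.5 stomach. Day 46 and lung were 0.88 apart, just within the SD between probes of 0.89 for that pair. The gene is also a product of neutrophil granules, and 10 neutrophil genes had a summed level of 4.50 at day 42, 4.37 at day 46, 4.89 in lung, 3.09 in stomach, 2.97 in esophagus, 0.23 in intestine and -2.10 in E9.5 stomach. Lactoferrin (Ltf), a further granule and epithelial secretory protein, made up most of that sum at day 42 (4.46) and day 46 (4.29). The granule genes Ngp and Elane and the neutrophil gene Retnlg were dim in both cultures, and S100a8 stood at -2.85 and -3.28. Of the 10 genes, 6 were above background at day 42 and 7 at day 46. Csf3r stood at -2.93 and -3.04 and Camp at -2.80 and -0.75, against -2.86 and -0.44 in lung. Against adult stomach, 3 of 8 neutrophil genes measured were at least 4-fold higher at day 42 and 2 were lower, where 7.39% and 10.3% of all genes were. The counts at day 46 were also 3 higher and 2 lower of 8, where 6.86% and 9.91% of all genes were. The part of neutrophils in the Lcn2 levels was not tested. All 10 neutrophil genes were above background in lung.

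**Figure D2:**
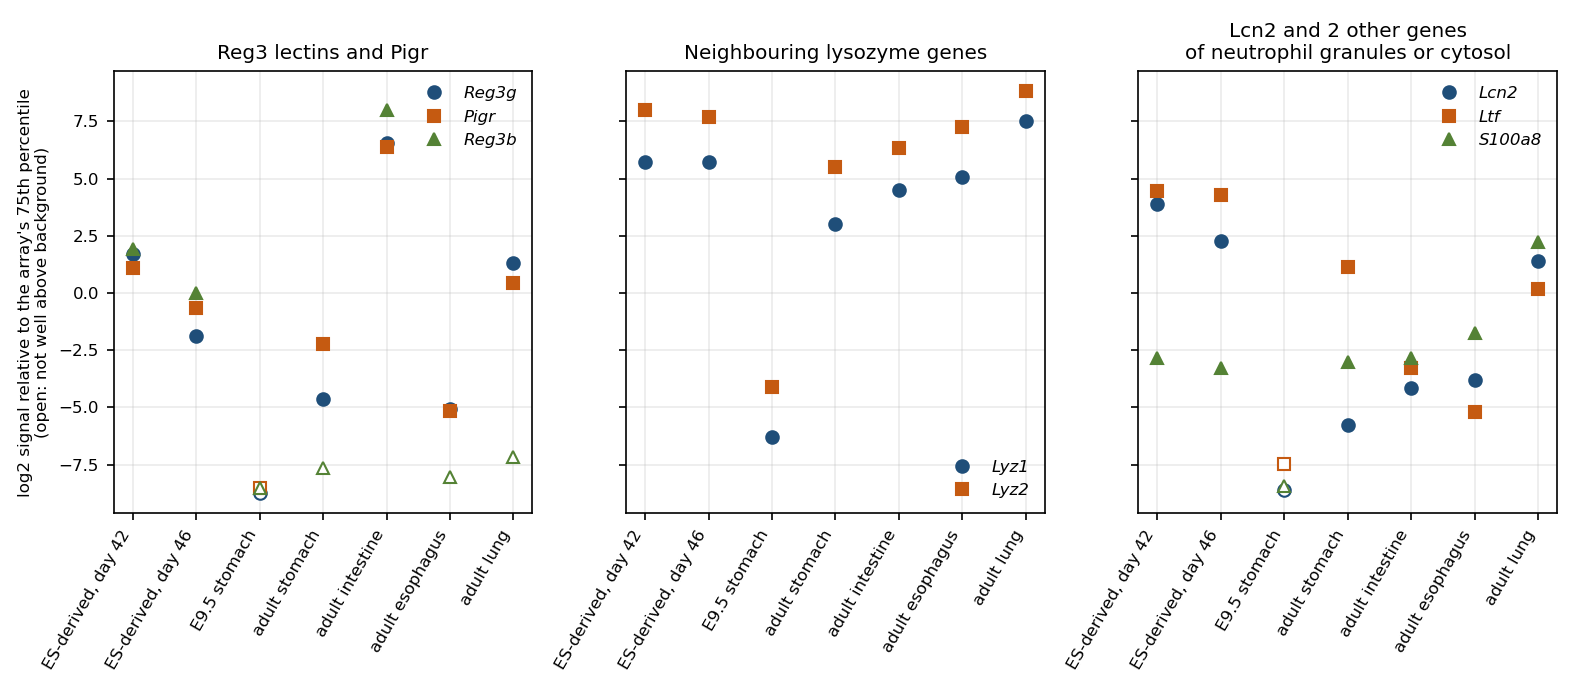
Level of 3 sets of genes on the 7 arrays, as log2 signal relative to the array's 75th percentile, with Reg3g, Reg3b and Pigr on the left, Lyz1 and Lyz2 in the middle and Lcn2, Ltf and S100a8 on the right. Each point is 1 array and open symbols are values not well above background. Reg3g and Pigr had the same order of the 7 arrays, and Lyz1 and Lyz2 ran together on all 7 arrays. Lcn2 was highest in the cultures. There S100a8 (-2.85 and -3.28) stood near its level in adult stomach (-3.03), while Ltf (4.46 and 4.29) stood above its level in adult stomach (1.11).

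Lyz1 was read on every array and was highest in lung. Its level was 7.53 in lung, 5.72 at day 46, 5.70 at day 42, 5.05 in esophagus, 4.48 in intestine, 3.02 in stomach and -6.31 in E9.5 stomach. Both cultures were indistinguishable from each other (0.02 apart), and day 42 from esophagus (0.66) and esophagus from intestine (0.57) were within the SD between probes. Lyz1 lies beside Lyz2 on chromosome 10, and the sequences before their start sites are shown because the levels of these neighbours ran together over the arrays. They are not transcribed and say nothing of what the Lyz1 probe binds. The windows are the 250 bases of Lyz1 (chr10:117292869-117293118) and of Lyz2 (chr10:117282273-117282522), both on the minus strand of GRCm38.p6 and printed 5′ to 3′ on that strand, with a match to TTNNGNAA, of the kind bound by C/EBP factors, in capitals.
Lyz1: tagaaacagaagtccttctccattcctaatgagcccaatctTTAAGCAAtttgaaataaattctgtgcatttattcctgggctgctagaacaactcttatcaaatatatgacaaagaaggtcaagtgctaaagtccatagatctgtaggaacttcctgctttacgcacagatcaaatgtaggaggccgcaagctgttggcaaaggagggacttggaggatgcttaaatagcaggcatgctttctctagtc
Lyz2: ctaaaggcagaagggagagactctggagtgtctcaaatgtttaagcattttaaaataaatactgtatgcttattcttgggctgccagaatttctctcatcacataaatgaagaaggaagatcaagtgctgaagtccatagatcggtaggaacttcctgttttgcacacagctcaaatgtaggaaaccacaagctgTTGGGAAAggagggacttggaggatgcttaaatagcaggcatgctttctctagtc
The aligned windows were identical at 200 of 252 positions (79.4%) with a shared run of 50 bases. The C/EBP type match was at -209 to -202 in Lyz1 and at -55 to -48 in Lyz2, and 36.8% of all promoters in the table held 1. Lyz2, the lysozyme of macrophages, stood at 8.81 in lung, 7.98 at day 42, 7.67 at day 46, 7.27 in esophagus, 6.33 in intestine, 5.48 in stomach and -4.11 in E9.5 stomach. The lysozymes had the same order of the 5 adult and embryonic arrays, and the correlation of their levels over the 7 arrays was 0.997 (0.977 without E9.5). The probe sequences were not used here, so Lyz1 is reported as uncertain: signal from Lyz2 RNA on its probe was not tested. A list of 9 measured macrophage genes, Lyz2 among them, had all 9 above background on every array except E9.5 (7 of 9), with summed levels of 8.64 at day 42, 8.24 at day 46, 8.86 in lung, 7.46 in esophagus, 6.61 in intestine, 5.81 in stomach and -1.31 in E9.5 stomach. Lyz2 made up most of each sum except that of E9.5, so these sums largely restate its level. The median of the list was 2.81 at day 42, 1.86 at day 46 and 0.94 in lung.

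The step from day 42 to day 46 compares 1 culture sample with another taken after 4 further days with Shh and Bmp4, on arrays of different slides. Whether both came from the same culture is not given in the sources used here. The 4 added days, any further change of medium and Shh with Bmp4 cannot be told apart. Lypd8 was 80.3-fold higher at day 46 by the brighter probe (6.33, from -1.02 to 5.31) and 92.2-fold by the other (6.53), and 3 of the 15449 genes measured in this pair were further up. Reg3g was 11.8-fold lower (-3.57), Bpifb1 10.1-fold lower (-3.33) and Pglyrp1 8.87-fold lower (-3.15), with 12, 17 and 21 genes further down. In all, 1 of the 9 genes was at least 4-fold higher and 3 were at least 4-fold lower, where 1.04% and 0.764% of all genes measured were. Reg3b (-1.96), Pigr (-1.73), Lcn2 (-1.62) and Dmbt1 (-1.46) were 2.76-fold to 3.89-fold lower, each beyond the SD between probes of 0.51. Lyz1 differed by 0.02. The median over the 9 genes was -1.73, against 0.00 over all genes measured and -0.11 over the 13333 genes above background on both arrays.

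**Figure D3:**
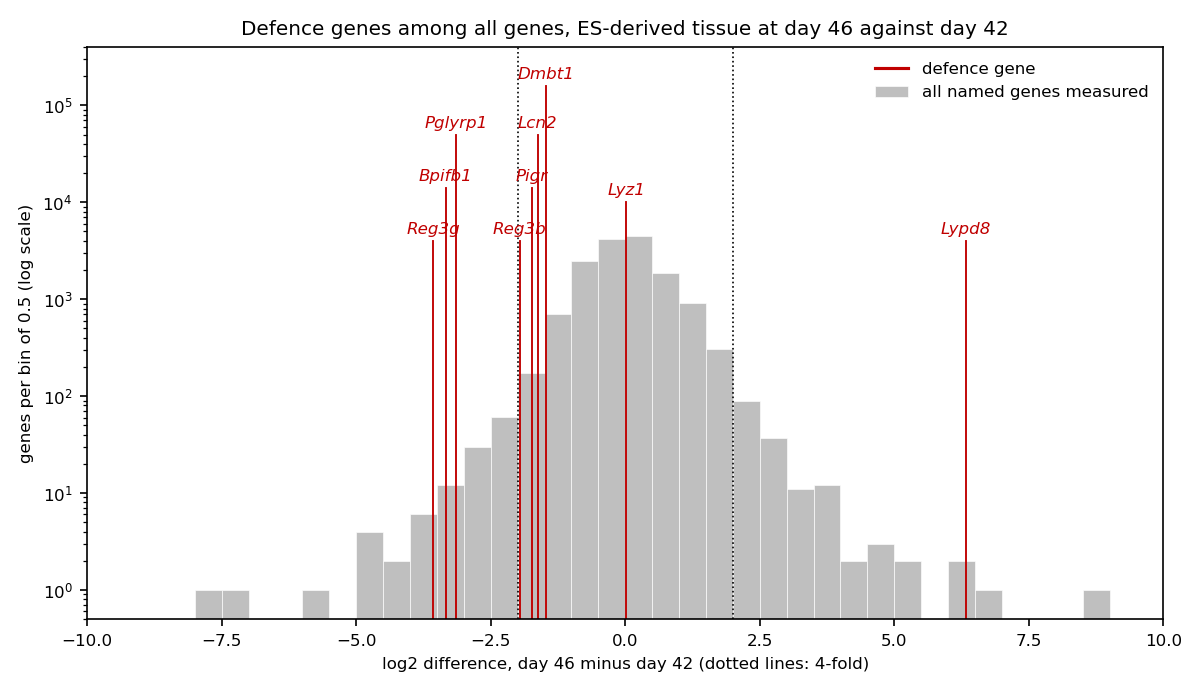
Log2 difference between day 46 and day 42 of each defence gene (red lines) over the distribution of all 15449 named genes measured in that pair (grey bars, genes per bin of 0.5 on a log scale), with dotted lines at 4-fold. Lypd8 lies at 6.33, Lyz1 at 0.02, and the other 7 genes between -1.46 and -3.57.

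The scaling of the arrays moves this pair. Centring on the median in place of the 75th percentile lowers every difference alike (Lyz1 from 0.02 to -0.38), shifts the median of all genes to -0.39 and changes the split of genes past 4-fold from 160 higher and 118 lower to 83 higher and 241 lower. Under it, 6 of the 9 defence genes were at least 4-fold lower, Reg3b (-2.36), Pigr (-2.13) and Lcn2 (-2.02) being added. Over all the alternatives run, Lypd8 stayed between 5.93 and 6.61 and Reg3g between -3.97 and -3.26. Several marker lists differed in the same step. The 8 gastric markers summed to 4.76 at day 42 and 7.81 at day 46, with 3 of 8 at least 4-fold higher, Gkn2 (0.84 to 7.23) among them, and 1 lower, Pgc (2.06 to -1.48). The goblet cell sum was 6.89 and 8.03, but of its 5 genes measured 3 were higher, led by Clca1 (-0.89 to 7.87), and 2 were lower, Agr2 (6.78 to -0.54) and Spink4 (2.40 to -1.33). The enterocyte sum was 3.71 and 6.21, with 1 of 7 genes past 4-fold, Krt20 (1.04 to 5.88). Paneth cell products summed to 6.42 and 4.30, with 1 of 9 genes past 4-fold, Mmp7, which was lower and made up most of the day 42 sum. The median difference of that list was 0.18. Esophageal markers summed to 1.74 and 3.13, while the pan-epithelial sum was 9.03 and 8.94 and that of macrophages 8.64 and 8.24. The part of these cell types in the differences was not tested.

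Against adult stomach, the day 42 culture was higher for 7 of the 9 defence genes. Lcn2 was 819-fold higher (9.68), Reg3b at least 306-fold higher (8.26, dim in stomach), Reg3g 80.0-fold higher (6.32), Dmbt1 12.4-fold (3.63), Pigr 10.1-fold (3.34), Pglyrp1 9.67-fold (3.27) and Lyz1 6.45-fold (2.69). Lypd8 was 222-fold lower (-7.79; the other probe -8.50) and Bpifb1 104-fold lower (-6.69). All 9 were thus past 4-fold, 7 higher and 2 lower, where 7.39% and 10.3% of 14815 genes were. The median was 3.34, against 0.00 over all genes. Of 7 hepatocyte genes in the same pair, 5 stood above stomach by 4-fold or more (median 5.56). The acute phase gene Hp was at 6.37 at day 42 and -2.73 in stomach, and Alb at 5.67 and -2.37. Apoa1 went the other way past 4-fold, at 2.56 at day 42 and 5.37 in stomach. Ttr was also below stomach, at -2.48 and -0.59. Above stomach by 4-fold or more were also 4 of 9 macrophage genes (median 1.89), while 5 of 5 esophageal genes were lower (median -5.76). Their part in the differences was not tested. Another background correction (normexp) gave smaller differences for the genes that were low in stomach, at 6.69 for Lcn2, 4.91 for Reg3b and 4.39 for Reg3g. With median centring the split of all genes past 4-fold went from 41.8% to 61.6% higher.

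The day 46 culture was at least 4-fold above the same stomach array for 5 genes. Lcn2 was 266-fold higher (8.05), Reg3b at least 78.7-fold higher (6.30), Reg3g 6.75-fold (2.75), Lyz1 6.53-fold (2.71), Dmbt1 4.48-fold (2.16) and Pigr 3.05-fold (1.61). Pglyrp1 differed by 0.12, within the SD between probes of 0.85. Bpifb1 was 1043-fold lower (-10.03), and Lypd8 was 2.76-fold lower (-1.46; the other probe -1.98). The counts were thus 5 of 9 higher and 1 lower, where 6.86% and 9.91% of 15723 genes were. Under the normexp correction Reg3g was at 1.13, no longer past 4-fold, Reg3b at 3.05 and Lcn2 at 5.09. Both culture comparisons use the same stomach array, so their values are given side by side and not as separate support. Bpifb1 and Lypd8 were the only genes of the 9 below adult stomach in either culture, and Lypd8 was the one whose distance from adult stomach differed most between them (-7.79 and -1.46).

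**Figure D4:**
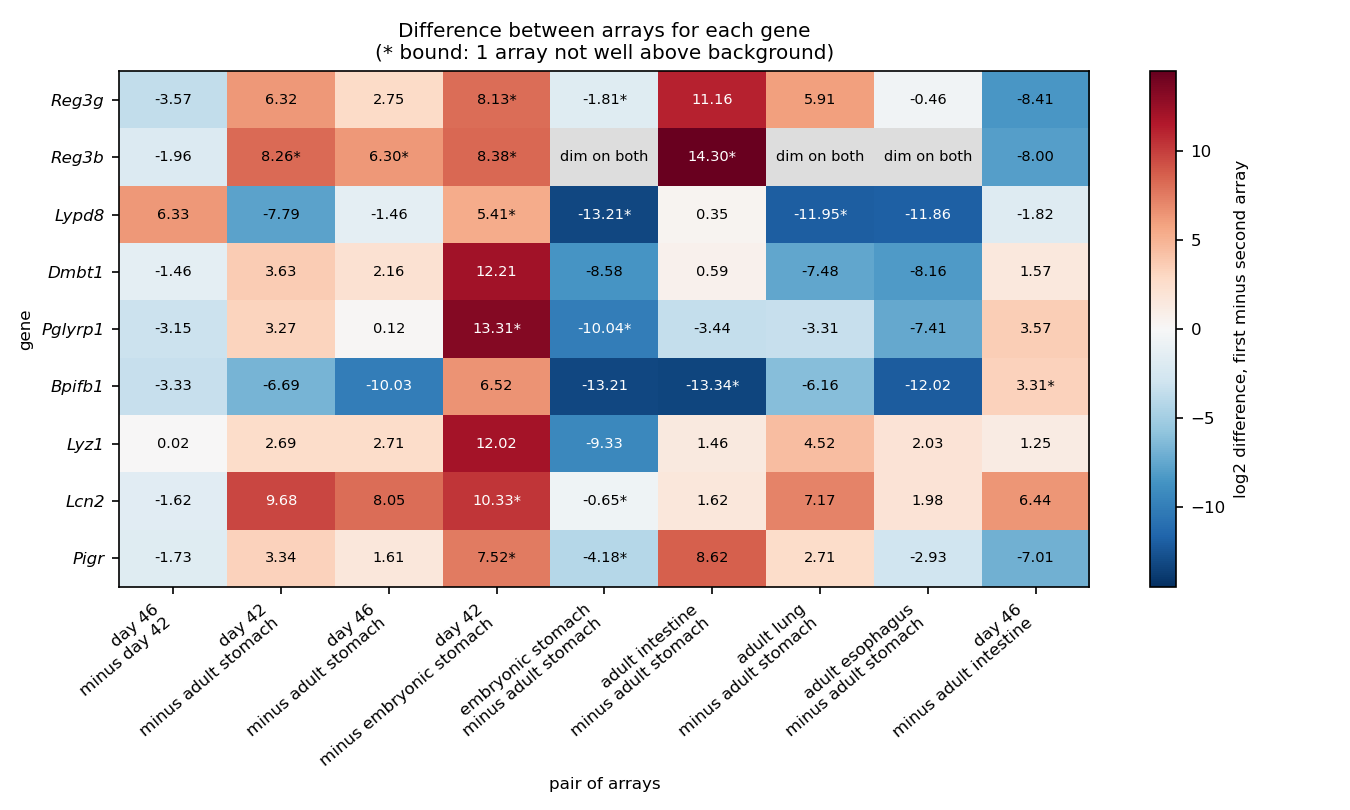
Log2 difference of each of the 9 defence genes (rows) for 9 pairs of arrays (columns, first minus second), coloured from blue (lower on the first array) to red (higher), with an asterisk where 1 array was not well above background and the value is a bound. Columns share arrays. Lcn2 is higher than adult stomach in both cultures and in lung (9.68, 8.05 and 7.17), while Bpifb1 is lower than adult stomach in every column that sets an array against it.

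Against the E9.5 stomach, all 9 genes were at least 4-fold higher at day 42 by their brightest probe, where 17.1% of 14691 genes were higher and 11.5% lower by that much. Of these, 3 were measured on both arrays: Dmbt1 was 4743-fold higher (12.21), Lyz1 4145-fold (12.02) and Bpifb1 91.7-fold (6.52). The other 6 were dim in the embryo and are bounds, from at least 42.6-fold for Lypd8 (5.41) to at least 10160-fold for Pglyrp1 (13.31). The other Lypd8 probe gave a bound of 3.76-fold (1.91), under 4-fold. Under normexp the differences were smaller, with 2.74 for Lypd8, 10.06 for Dmbt1, 9.18 for Lyz1 and 4.00 for Bpifb1. Markers of several cell types were higher in the same pair by at least 4-fold, with 8 of 8 pan-epithelial genes (median 4.39), 9 of 9 macrophage genes (median 6.43) and 7 of 7 hepatocyte genes (median 8.99), and their part in the difference was not tested. Between the E9.5 and the adult stomach, 6 of the 8 genes measured were at least 4-fold lower in the embryo and none higher, against 18.1% and 11.5% of 15086 genes. Bpifb1 was 9497-fold lower (-13.21), Lypd8 at least 9445-fold lower (-13.21; the other probe at least 1365-fold), Pglyrp1 at least 1050-fold lower, Lyz1 643-fold lower, Dmbt1 384-fold lower and Pigr at least 18.2-fold lower. Reg3g (at least 3.51-fold) and Lcn2 (at least 1.57-fold) were lower by less, from levels of -4.62 and -5.79 in adult stomach, and Reg3b was dim on both arrays. Under normexp Bpifb1 stood at -10.21, Lypd8 at -10.18, Pglyrp1 at -7.21, Lyz1 at -6.52, Dmbt1 at -6.44 and Pigr at -1.90, the last no longer past 4-fold. Pan-epithelial genes had a summed level of 5.23 in the E9.5 stomach and 9.39 in the adult, and the macrophage sum was -1.31 and 5.81. Their part in these differences was not tested.

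Among the adult organs, intestine and stomach divided the list. Against stomach, intestine was at least 20181-fold higher for Reg3b (14.30), 2292-fold higher for Reg3g (11.16) and 393-fold higher for Pigr (8.62). It was at least 10354-fold lower for Bpifb1 (-13.34) and 10.9-fold lower for Pglyrp1 (-3.44). These were 3 genes higher and 2 lower of 9, where 7.96% and 7.02% of 14993 genes were. Lcn2 (1.62), Lyz1 (1.46) and Dmbt1 (0.59) were higher by at most 3.07-fold, and Lypd8 was higher by 0.35 by 1 probe and by 0.69 by the other, on either side of the SD between probes of 0.53. Under normexp the differences were 10.74 for Reg3b, 9.24 for Reg3g, 7.87 for Pigr, -9.34 for Bpifb1 and 0.46 for Lcn2, so the bounds hold for the main background correction alone.

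Lung was higher than stomach for Lcn2 (144-fold, 7.17), Reg3g (60.1-fold, 5.91), Lyz1 (22.9-fold, 4.52) and Pigr (6.53-fold, 2.71). It was lower for Dmbt1 (178-fold, -7.48), Bpifb1 (71.6-fold, -6.16), Pglyrp1 (9.89-fold, -3.31) and Lypd8 (at least 3954-fold by the brighter probe, 230-fold by the other). So 4 of the 8 genes measured were higher and 4 lower by 4-fold, against 8.84% and 8.97% of 14700 genes. Under normexp Lcn2 stood at 4.07, Reg3g at 4.08, Dmbt1 at -5.95 and Lypd8 at -10.07, all still past 4-fold. Airway genes had a summed level of 10.82 in lung and 3.06 in stomach, and goblet cell genes -0.54 and 6.95. At least 4-fold higher in lung were 6 of 10 neutrophil genes (median 2.87) and 2 of 9 macrophage genes (median 0.43), with none lower in either list. The part of these cell types in the lung differences was not tested.

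Esophagus, a squamous epithelium, was below stomach for 5 of 8 measured genes and above it for 1, against 6.31% and 5.31% of 14854 genes. Bpifb1 was 4152-fold lower (-12.02), Lypd8 3722-fold (-11.86; the other probe at least 1095-fold), Dmbt1 286-fold (-8.16), Pglyrp1 170-fold (-7.41) and Pigr 7.60-fold (-2.93). In esophagus Bpifb1 (-4.86), Reg3g (-5.08), Lypd8 (-5.09), Dmbt1 (-5.11) and Pigr (-5.18) stood close together, near the lowest signal above background there (-6.12). Their levels there are not read as graded, and their folds depend on the background. Lyz1 was 4.09-fold higher (2.03) and Lcn2 3.96-fold higher (1.98), while Reg3g (-0.46) lay within the SD between probes of 0.48. Under normexp Bpifb1 stood at -9.82, Lypd8 at -9.87, Dmbt1 at -6.17, Pglyrp1 at -6.35, Pigr at -1.42 and Lcn2 at 0.18, and with median centring Lyz1 was at 1.94, below 4-fold. The sum of the pan-epithelial list, which holds genes of simple epithelium, was 2.97 in esophagus and 9.39 in stomach.

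Set against intestine, the day 46 culture was lower for the 3 genes that were highest there and higher for others. Reg3g was 340-fold lower (-8.41), Reg3b 256-fold lower (-8.00) and Pigr 129-fold lower (-7.01). Lcn2 was 86.6-fold higher (6.44), Pglyrp1 11.8-fold higher (3.57) and Bpifb1 at least 9.93-fold higher (3.31, dim in intestine, and 0.05 under normexp). These 3 lower and 3 higher of 9 stand beside 12.2% and 9.35% of 15701 genes. Dmbt1 (1.57) and Lyz1 (1.25) were within 4-fold, as was Lypd8 by the brighter probe (-1.82), while its other probe was 6.33-fold lower (-2.66).

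The other defence genes of the lists were counted in the same way and are read beside the shares of all genes in each pair. At day 46 against day 42, where 1.04% of all genes were at least 4-fold higher and 0.764% lower, of 5 other Reg and lectin genes measured 1 was at least 4-fold higher, Zg16 (6.85), a goblet cell lectin that binds Gram-positive bacteria, and Reg1 was at -1.50. Zg16 stood at -3.45 at day 42, 3.40 at day 46, -4.05 in stomach and 9.74 in intestine. Of 9 Paneth cell products, the granule genes of the small intestinal crypt, none was higher and Mmp7, the protease that activates alpha-defensins, was lower (-2.89). Of 16 secreted metal-binding, inhibitor and peptide genes 4 were higher, the chitinase-like genes Chil4 (4.52) and Chil3 (4.12), hepcidin (Hamp, at least 2.93) and cathelicidin (Camp, 2.05), and none was lower.

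Few of the receptors and regulators that lie upstream of such genes were past 4-fold at day 46 against day 42. In lists this small 1 gene already exceeds the shares of all genes, so the counts say nothing particular of the lists. None of 12 peptidoglycan and pattern receptors was past 4-fold (median -0.29), and of 22 cytokine receptors and transcription factors 1 was, Spdef (-4.11), a factor of goblet and Paneth cell maturation. Of 13 cytokines and chemokines, Il1b (2.93) and Cxcl2 (at least 2.92) were higher and Cxcl5 (-4.56) was lower. None of 3 oxidant defence genes was past 4-fold. Of 6 beta-defensin and BPI fold genes 1 was lower, Bpi (-2.45, a bound), and of 7 antibody genes 1 was, Pou2af1 (-2.07).

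Against adult stomach the day 42 culture was higher for 5 of 9 Paneth cell products and lower for 1 (median 3.24), where 7.39% and 10.3% of all genes were. Mmp7 was at least 11.96 higher on the log2 scale, and the alpha-defensins Defa5 and Defa20 were 7.24 and 6.72 higher. Alpha-defensin genes are near-identical copies, so their probes may read several of them. Defa5 was at 7.56 in intestine, 1.34 at day 42, 0.50 at day 46 and -5.90 in stomach. Mmp7 was at 6.21 at day 42, 3.32 at day 46 and -0.17 in intestine. Pattern receptors had 4 of 11 members higher and none lower, led by Lbp (6.47) and its partner Cd14 (3.66), which together present lipopolysaccharide. Of 17 secreted genes 6 were higher, among them Sftpd (8.50) and Wfdc18 (5.63), and 7 lower, among them the gastric chitinase Chia1 (-14.47, a bound) and Chil4 (-7.38). Of 6 beta-defensin and BPI fold genes none was higher and 3 were lower.

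At day 46, against the same stomach array, 5 of 9 Paneth cell products were again at least 4-fold higher and 1 lower (median 3.42), against 6.86% and 9.91% of all genes. Of 5 other Reg and lectin genes 2 were higher, Zg16 (7.45) and Reg1 (3.08), and Itln1 was lower (-2.21). In adult intestine against stomach, where 7.96% of all genes were higher, all 7 other Reg and lectin genes measured were higher (median 9.03), with Zg16 at 13.79 and Reg3a at 10.05, as were all 10 Paneth cell products (median 9.74) and 7 of 8 antibody genes (median 3.73). The lists were chosen with earlier results of these data known and are described by count only.

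**Figure D5:**
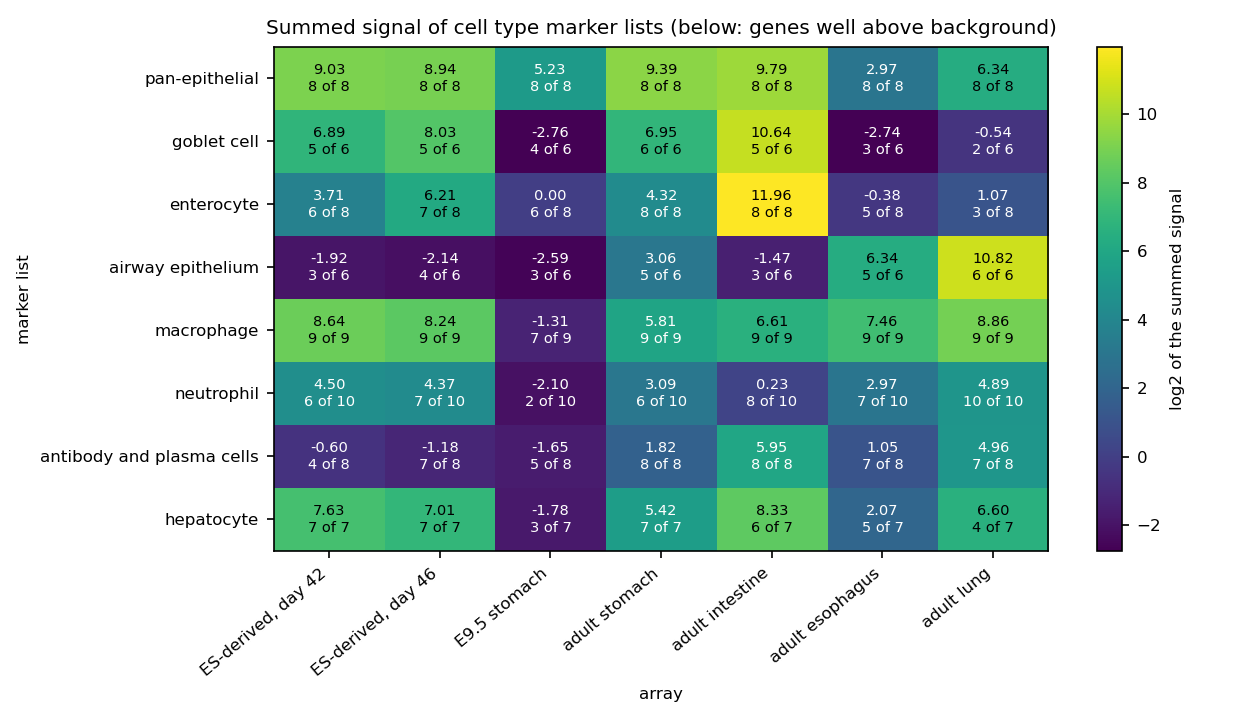
Summed signal of 8 cell type marker lists (rows) on the 7 arrays (columns), as log2 of the sum relative to the array's 75th percentile, with the number of genes above background printed under each value. Intestine has the highest goblet cell and enterocyte sums (10.64 and 11.96), and lung the highest airway sum (10.82). Both cultures carry macrophage sums (8.64 and 8.24) next to that of lung (8.86), and Lyz2 makes up most of all 3. The medians of that list are 2.81 at day 42, 1.86 at day 46 and 0.94 in lung.

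The 7 arrays share their array design, and only the 4 adult arrays share a slide. The genes whose levels ran most like those of a member were sought among 11138 named genes by Pearson correlation over these arrays. These are descriptions over 7 points. For Reg3g they were Pxk (0.98), Pigr (0.98, or 0.96 without E9.5) and the chloride channel gene Cftr (0.97), and for Pigr Pxk (0.996), Ifngr2 and Slc25a45 (both 0.98). For Reg3b they were Cyp2a12 (0.99), Ppm1n (0.99) and Rhoc (0.98). Reg3g and Reg3b correlated at 0.83 with each other, less than Reg3g and Pigr.

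For Lypd8 the closest genes were Rnf128, Slc35f5 and Ahcyl2 (each 0.98). For Bpifb1 they were Adgrg1 (0.98), Tff2 (0.97), the trefoil peptide of gastric mucous neck cells, and Ltk (0.96). For Dmbt1 they were Acnat2, Slc35c1 and Mcpt1 (all 0.98), and for Pglyrp1 Slc40a1, Man2b1 and Padi2 (all 0.98). Dmbt1 and Pglyrp1 correlated at 0.85 with each other. For Lcn2 they were Pcdhb20 (0.99), H6pd (0.98) and C1qtnf7 (0.98). For Lyz1 they were Nckap1l, a gene of haematopoietic cells, Sp110 and Lyz2 (each 0.997), so the leading partners of Lyz1 on these arrays included a leukocyte gene and the macrophage lysozyme.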

How the data were processed

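Total RNA of 7 mouse samples was read on 7 one-colour Agilent arrays. Per the file headers, the deposited scanner files hold background-corrected intensity per spot with flags for controls, outliers and signal well above background, and name Agilent Feature Extraction 10.7.3.1 for both culture arrays and 10.5.1.1 for the other 5 (the submitters' processing notes name 10.5). The authors also deposited log2 tables of the same arrays, whose medians were -3.33 (day 42), -2.92 (day 46), -3.43 (E9.5), -2.86 (stomach), -2.98 (intestine), -2.75 (esophagus) and -2.68 (lung). These correlated at 0.999 or above with the values used here, so their scale and direction were the same.

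From the intensities, control spots and outliers (40 to 728 per array) were left out, no spot was saturated, log2 was taken, repeat spots were averaged and the 75th percentile of each array was subtracted (Python 3.11.15, pandas 2.3.3). Probes were named by accession (24367) or symbol (57) through the RefSeq table, and 16750 stayed unnamed and were left out. The probe with the highest mean stood for a gene. A gene dim on both arrays was not counted, and a bound that left no difference was set to 0. With 1 array per group no test could be run, and this small number of arrays sets the precision.

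The 9 genes and all lists were chosen with earlier results of these data known. Named genes were the 9, up to 4 per list with the largest absolute difference, the 3 most correlated with each of the 9 and the defining markers. Alternatives were median centring, quantile normalization, normexp (limma 3.58.1, offset 50, on median signals because the files carry no mean signal), the authors' table, no background filter, only genes above background on both arrays, the mean over probes and a 2-fold threshold. The counting was tested on simulated data. Promoters came from RefSeq (GRCm38.p6), aligned with Biopython 1.88.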

Additional observations from a re-analysis of the deposited data

How the results depend on the processing

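Of the recomputed counts and medians, 185 stayed within 1.5 times or the SD between probes and 22 moved. Of the differences of single genes, 466 stayed and 63 moved. No difference of a single gene past 4-fold changed sign, but the medians for lung against stomach and day 46 against intestine did, as given below. The cause of these moves was not tested, except that fewer genes enter when both arrays must be above background.

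With normexp the medians over the 9 genes were 1.13 (day 46 against stomach), 5.59 (day 42 against E9.5), -6.48 (E9.5 against stomach), 0.53 (intestine against stomach), -3.80 (esophagus against stomach) and 0.053 (day 46 against intestine). Without a background filter they were 10.45 (day 42 against E9.5), 0.49 (lung against stomach, from -0.30) and -2.93 (esophagus against stomach). With genes above background on both arrays alone they were 12.02 (day 42 against E9.5), 2.71 (lung against stomach) and -0.29 (day 46 against intestine, from 1.25). That filter also left 3 genes higher at day 42 than in E9.5, 3 lower in E9.5 than in stomach and 1 lower in intestine than in stomach. Median centring gave 6 genes lower at day 46 than at day 42 and 0 higher in esophagus than in stomach. At 2-fold there were 7 lower at day 46 than at day 42, 2 lower at day 46 than in stomach, 5 higher in intestine than in stomach, 2 higher in esophagus than in stomach and 5 higher at day 46 than in intestine. Quantile normalization, the authors' table and the mean over probes moved none of the counts or medians.

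No paired analysis was possible because each group had 1 array, and the same holds for leaving out an array. Signal over background limits the E9.5 values, Reg3b in 3 adult organs, Bpifb1 in intestine and the low Lcn2 and Reg3g values of stomach. In esophagus it also limits Bpifb1, Lypd8, Dmbt1, Pigr and Reg3g.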
